A study of Mus musculus with 12 samples.

Results

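Oncofetal genes are active in the embryonic or fetal liver, are shut down or kept low in the adult organ, and come back in some liver tumors. The 9 described here are Afp, Gpc3 and Epcam, whose products are secreted or sit on the cell surface, Lin28b, Igf2bp1, Igf2bp2, Igf2bp3 and L1td1, whose products bind RNA, and Hmga2, whose product binds DNA. They are 9 of 24062 gene symbols counted in each library. They were chosen by name, with earlier results of these libraries known, so their levels and fold changes are given as a description and support nothing by themselves.

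RNA was sequenced from 12 mice, 1 library each, in 4 groups of 3. Both liver groups were male FVB mice that carry TRE-MYC, a MYC transgene that answers to the tTA protein, and LAP-tTA, which makes that protein in the liver. MYC was switched on from the day of birth by taking the mothers off doxycycline. Control livers came from mice 101, 102 and 103 on the complete diet, and No-Trp livers from mice 105, 107 and 108 on the diet without tryptophan (Trp), both for 21 days. The labels give an age of 45 days for males of another comparison and none for the diet groups. Both xenograft groups were HCC53N tumors from under the skin of NOD SCID females (NOD-SKID in the labels) on the same diets for 21 days, with mice 40, 41 and 43 on the control diet and mice 35, 36 and 37 on the No-Trp diet. HCC53N is 1 line of mouse liver cancer cells, described as lacking p53 and carrying mutant NRAS. The paper states that it was made from tumors of that p53 and NRAS model, and names no MYC transgene for it. The labels call it MYC ON, which was not checked here. The host is a mouse too, so reads of host cells and tumor cells cannot be told apart, and the tissue, site, sex, strain and driver genes of the models differ together.

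Each library held 14660963 to 26085349 reads on genes. Levels are given as reads and as CPM, reads scaled to the same library size after TMM scaling over the 12 libraries. Libraries 101, 108, 41 and 43 carry a mark of resubmission, and the precursor ribosomal RNA Rn45s took 12.1% of the reads in liver 101, 2.22% in liver 102 and 0.261% to 0.758% elsewhere. In the xenografts the mark falls on control tumors 41 and 43 and on no No-Trp tumor. Reads left off genes were 28.5% to 39.4% in control xenografts and 26.4% to 26.8% in No-Trp xenografts. Both therefore go partly with the diet there. Alb, the albumin gene that defines hepatocytes, had 4522 to 88176 CPM in the livers and 74.8 to 344 CPM in the xenografts, while Krt19, a keratin of bile duct cells, had 6.14 to 19.9 CPM in the livers and 169 to 648 CPM in the xenografts. Trp53, labelled as knocked out in HCC53N, had 17.5 to 22.8 CPM in the xenografts, 115 to 133 CPM in the control livers and 46.7 to 75.6 CPM in the No-Trp livers. Whether the tumor cells made those reads cannot be told from counts summed over a gene.

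Several of these genes meet in 1 circuit. In the embryo, Lin28b and its relative Lin28a bind precursors of the let-7 microRNAs and stop their maturation. Mature let-7 pairs through its seed (bases 2 to 8) with the 3' untranslated regions of target mRNAs and lowers their output, and Hmga2, Lin28b itself and the Igf2bp genes are among its classical targets. Afp lies outside that loop. Its promoter is driven by hepatocyte factors such as HNF1 and is silenced after birth by repressors such as Zhx2 and Zbtb20.

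To show what these mRNAs share, the let-7 seed is given with the sites that match it. Of 11 mature let-7 family sequences of the mouse in RefSeq (GRCm38.p6), 10 have the seed of let-7a, and only let-7j differs from it. Mature microRNAs were not measured in these libraries of polyadenylated RNA. Here are 3 of them, 5' to 3', with the seed in capitals.
let-7a-5p: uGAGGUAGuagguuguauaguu
let-7g-5p: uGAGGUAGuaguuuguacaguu
miR-98-5p: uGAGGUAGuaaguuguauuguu

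The longest 3' untranslated region of each gene in GENCODE M21 was searched, on the mRNA strand, for the 8-base match CTACCTCA (the seed match followed by A), the 7-base match CTACCTC without that A, and the 7-base match TACCTCA. A full 8-base match was present in 5 of the 9 genes, which are Lin28b, Igf2bp1, Igf2bp2, Igf2bp3 and Hmga2, against 3.06% of 21020 genes searched and 9.13% of the 2804 genes whose region is 3000 bases or longer. These 5 are the genes named above as classical let-7 targets. The contrast with all genes was therefore set by the choice of members and supports nothing. Afp, Gpc3, Epcam and L1td1 had none of the 3 matches in regions of 201, 441, 660 and 364 bases. Hmga2 had 7 matches in 3014 bases, or 2.32 per kb, Lin28b had 5 in 4445 bases, or 1.12 per kb, and all genes together had 0.124 per kb. Igf2bp1 had 3 of the 8-base matches in 6337 bases, and 3 other genes had more than 3. Igf2bp2 had 2 matches in 1784 bases and Igf2bp3 had 1 in 2119 bases. The first 8-base match of each of the 5 genes is shown with its flanks, 30 bases on the mRNA strand with the match in capitals. All lie in the 3' untranslated region on the minus strand of GRCm38, at chr10:45381011-45381040 for Lin28b, chr11:95961767-95961796 for Igf2bp1, chr16:22059462-22059491 for Igf2bp2, chr6:49086776-49086805 for Igf2bp3 and chr10:120364213-120364242 for Hmga2.
Lin28b: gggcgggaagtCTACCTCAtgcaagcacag
Igf2bp1: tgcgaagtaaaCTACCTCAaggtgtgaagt
Igf2bp2: acaaataaaagCTACCTCAggtgtttttta
Igf2bp3: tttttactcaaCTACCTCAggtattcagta
Hmga2: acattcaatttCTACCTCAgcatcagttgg

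A letter match is a description of the sequence and says nothing about whether the site was used in these tissues. The flanks of the 5 sites differ from each other, and what all 5 share is the match itself, although Igf2bp2 and Igf2bp3 both go on with ggt.

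Promoters are shown for Afp, L1td1 and Igf2bp3, the 3 genes whose control livers stood apart above the other groups. Each is 300 bases from RefSeq on GRCm38.p6, 250 before and 50 after the start of the gene, in the direction of transcription. They were searched on both strands for CACGTG (the E-box bound by MYC), GTTAAT (a half-site of HNF1), TATAAA (the TATA box) and GGGCGG (the GC box), and matches are in capitals. Of 27025 promoters, 7.24% held CACGTG, 7.20% GTTAAT, 14.2% TATAAA and 35.9% GGGCGG. The Afp promoter, chr5:90490464-90490763 on the plus strand, had 1 GTTAAT and 1 TATAAA and 3 CG pairs. The Igf2bp3 promoter, chr6:49214905-49215204 on the minus strand, had 2 CACGTG matches and 25 CG pairs. The L1td1 promoter, chr4:98726504-98726803 on the plus strand, held none of the 4 motifs and had 14 CG pairs.
Afp: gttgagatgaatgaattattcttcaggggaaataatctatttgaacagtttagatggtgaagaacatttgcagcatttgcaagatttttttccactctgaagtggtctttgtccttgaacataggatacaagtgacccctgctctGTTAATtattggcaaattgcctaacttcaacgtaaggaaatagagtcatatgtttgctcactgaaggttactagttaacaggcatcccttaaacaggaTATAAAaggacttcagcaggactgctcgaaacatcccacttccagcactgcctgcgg
Igf2bp3: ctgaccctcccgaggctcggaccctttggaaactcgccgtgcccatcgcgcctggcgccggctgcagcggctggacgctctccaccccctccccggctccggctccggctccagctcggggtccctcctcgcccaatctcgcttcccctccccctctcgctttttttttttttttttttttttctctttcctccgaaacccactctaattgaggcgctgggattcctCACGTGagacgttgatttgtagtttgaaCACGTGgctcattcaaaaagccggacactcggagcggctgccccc
L1td1: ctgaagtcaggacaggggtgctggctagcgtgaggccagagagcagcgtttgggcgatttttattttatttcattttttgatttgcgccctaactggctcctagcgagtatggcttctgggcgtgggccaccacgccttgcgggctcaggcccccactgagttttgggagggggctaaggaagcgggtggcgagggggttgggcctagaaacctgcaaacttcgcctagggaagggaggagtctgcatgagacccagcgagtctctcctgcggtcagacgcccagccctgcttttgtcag

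Among the other members in that table, Lin28b and Epcam had 1 CACGTG each, Epcam and Hmga2 had 1 GGGCGG each, Igf2bp2 had 2 and Gpc3 had 4. At least 10 CG pairs were present in 43.9% of all promoters, and the members ranged from 3 in Afp to 47 in Igf2bp2, above 98.6% of promoters. Igf2bp1 had no entry.

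Afp (chromosome 5, 90490737 to 90508907, plus strand) encodes alpha-fetoprotein, the main plasma protein of the fetus, whose gene lies in the albumin cluster. It was the member with the highest level per kb of exon in the livers. Control livers had 55149 reads in mouse 101, 14568 in mouse 102 and 42793 in mouse 103, which are 2661, 821 and 1709 CPM. No-Trp livers had 8280 reads in mouse 105, 1433 in mouse 107 and 9157 in mouse 108, which are 474, 88.1 and 712 CPM. The diets did not overlap, although the highest No-Trp liver came close to the lowest control liver. The means were 1730.3 ± 920.3 CPM and 424 ± 315 CPM (SD, n = 3 each), and the log2 fold change was -2.02 (standard error, SE, 0.76, edgeR adjusted p = 0.0915), so Afp was not called. Xenografts had 787 to 1624 reads on the control diet (41.0 to 79.6 CPM) and 776 to 1477 on the No-Trp diet (28.2 to 49.3 CPM), and these ranges overlapped. Among 23684 genes ranked by level per kb, Afp was above 99.7% in the control livers, 98.0% in the No-Trp livers and 82.5% in the No-Trp xenografts.

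L1td1 (chromosome 4, 98726734 to 98738480, plus strand) encodes an RNA-binding protein derived from a LINE-1 element and is known from embryonic stem cells. Control livers had 204 reads in mouse 101, 30 in mouse 102 and 134 in mouse 103, or 9.84, 1.69 and 5.35 CPM. No-Trp livers had 0 reads in mouse 105 and 1 each in mice 107 and 108. The xenografts had 1 read in mouse 35, 1 in mouse 41 and 0 in the other 4. Reads were therefore confined, beyond 1 per library, to the 3 control livers of these 12 libraries. Summed over mice, 368 reads stood against 2 in the livers, a CPM ratio of 135 (95% exact interval 37.1 to 1119, counting error only). The fitted log2 fold change of -6.80 (SE 1.00, edgeR adjusted p = 0.0158) depends on the prior count at such levels, and L1td1 was the single member called between the diets in livers. In the xenografts the filter on low counts left it out, and no fold is given. In the livers, and in the fit of all 12 libraries, L1td1 passed that filter only through the control livers. The direction of its calls was therefore largely set beforehand, and the calls support nothing by themselves.

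Igf2bp3 (chromosome 6, 49085223 to 49214957, minus strand) encodes an RNA-binding protein that steadies and moves mRNAs, and it overlaps the protein-coding gene Malsu1 on the other strand. Control livers had 2334, 1616 and 2794 reads in mice 101, 102 and 103, or 113, 91.1 and 112 CPM. No-Trp livers had 1034, 289 and 784 reads in mice 105, 107 and 108, or 59.1, 17.8 and 60.9 CPM. The groups did not overlap, and mouse 107 was the lowest of all 12 libraries. The log2 fold change was -1.18 (SE 0.43, edgeR adjusted p = 0.0817), short of a call. The xenografts were tightly grouped, at 34.4 to 37.6 CPM on the control diet and 31.9 to 37.9 CPM on the No-Trp diet.

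**Figure D1:**
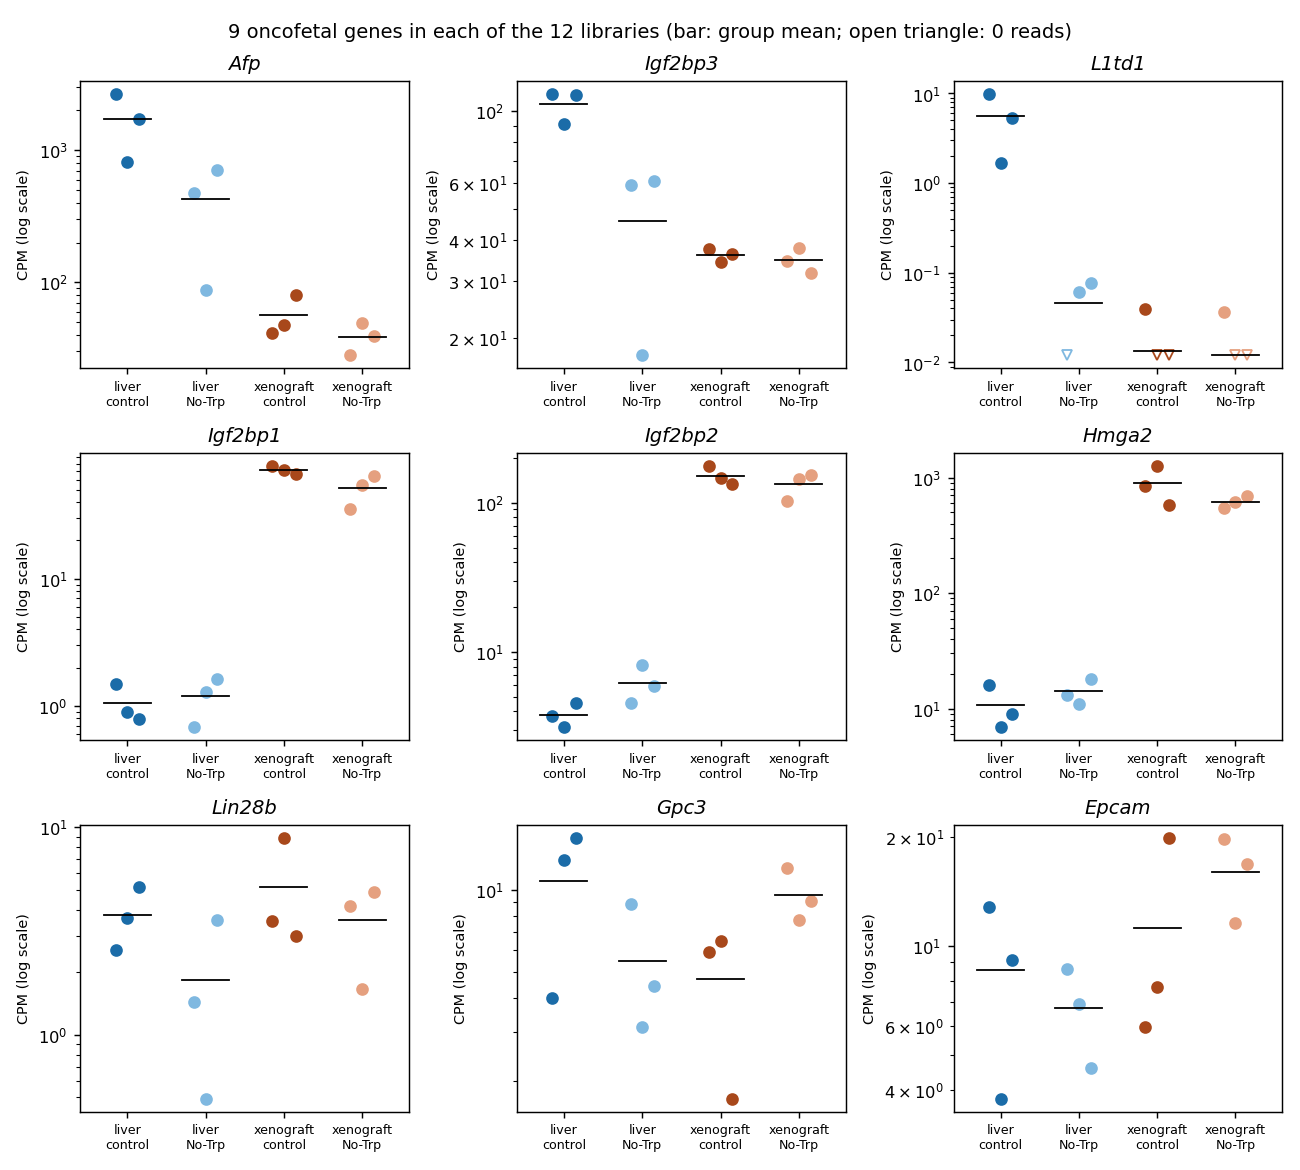
CPM of each of the 9 genes on a log axis (vertical) in the 4 groups (horizontal), with 1 point per mouse, a bar at the group mean and an open triangle for a library with 0 reads. Afp, Igf2bp3 and L1td1 are highest in the control livers, while Igf2bp1, Igf2bp2 and Hmga2 are at 35.0 CPM or more in each xenograft and at 18.0 CPM or less in each liver.

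Hmga2 (chromosome 10, 120361275 to 120476469, minus strand) encodes an architectural protein that bends DNA and is abundant in embryonic tissue. Unlike Afp, it was higher in both xenograft groups than in both liver groups. Control xenografts had 21096 reads in mouse 41, 20721 in mouse 43 and 11693 in mouse 40, or 842, 1263 and 573 CPM. No-Trp xenografts had 14995, 18358 and 16212 reads in mice 35, 36 and 37, or 544, 612 and 688 CPM. These ranges overlapped, and the log2 fold change between the diets was -0.55 (SE 0.27, edgeR adjusted p = 0.349). Livers had 123 to 332 reads on the control diet (6.93 to 16 CPM) and 178 to 232 on the No-Trp diet (10.9 to 18.0 CPM). Per kb of exon, Hmga2 was above 98.8% of genes in the control xenografts and above 56.0% in the control livers.

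Igf2bp1 (chromosome 11, 95957163 to 96005940, minus strand) and Igf2bp2 (chromosome 16, 22059009 to 22163299, minus strand) encode relatives of Igf2bp3. Igf2bp1 had 16 to 31 reads in the control livers and 12 to 21 in the No-Trp livers. In the control xenografts it had 1929 reads in mouse 41, 1176 in mouse 43 and 1359 in mouse 40, or 76.9, 71.7 and 66.6 CPM. In the No-Trp xenografts it had 966, 1629 and 1510 reads in mice 35, 36 and 37, or 35.0, 54.3 and 64.1 CPM, all below the control range. That diet difference was -0.50 in log2 (SE 0.22, edgeR adjusted p = 0.297). Igf2bp2 had 3.16 to 4.55 CPM in control livers and 4.58 to 8.24 CPM in No-Trp livers, which did not overlap but nearly touched. Its log2 fold change in livers was 0.73 (SE 0.32, edgeR adjusted p = 0.129). Its xenograft levels of 132 to 176 CPM on the control diet and 102 to 152 CPM on the No-Trp diet overlapped.

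The family was thus made up of different members in the models. Of the summed level per kb of exon of the 3 Igf2bp genes, Igf2bp3 was 95.4% ± 0.213 in the control livers, 81.2% ± 15.3 in the No-Trp livers, 13.8% ± 1.33 in the control xenografts and 15.9% ± 3.51 in the No-Trp xenografts (SD, n = 3 each). In No-Trp livers the share of Igf2bp3 ran from 63.6% in mouse 107 to 91.3%. Igf2bp2 was 63.2% ± 2.15 of the family in the control xenografts and 3.8% ± 0.424 in the control livers. The summed level was 13.5 ± 1.58 CPM per kb in the control livers, 6.60 ± 2.76 in the No-Trp livers, 32.3 ± 3.66 in the control xenografts and 27.4 ± 5.11 in the No-Trp xenografts. With the longest transcript in place of merged exons the Igf2bp3 share was 96.4% in the control livers and 17.6% in the control xenografts.

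**Figure D2:**
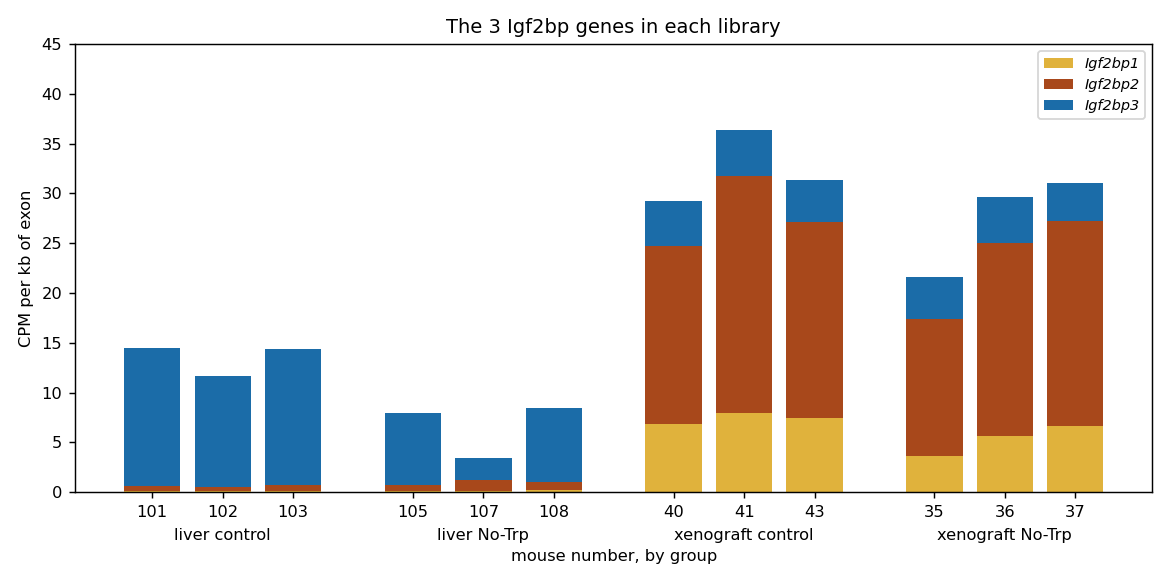
Stacked bars of CPM per kb of exon (vertical) for Igf2bp1, Igf2bp2 and Igf2bp3 in each of the 12 libraries (horizontal, mouse numbers by group). Liver bars are mostly Igf2bp3 and are shorter on the No-Trp diet, and xenograft bars are mostly Igf2bp2 with a clear part of Igf2bp1.

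Lin28b, Gpc3 and Epcam did not separate the models in this way. Lin28b (chromosome 10, 45376620 to 45486395, minus strand), the blocker of let-7 maturation, was low everywhere, with 53, 65 and 129 reads in control livers 101, 102 and 103 and 25, 8 and 46 in No-Trp livers 105, 107 and 108. The xenografts had 61 to 146 reads on the control diet and 50 to 115 on the No-Trp diet. Group means ran from 1.83 ± 1.58 CPM in the No-Trp livers to 5.15 ± 3.26 CPM in the control xenografts (SD, n = 3 each), and each pair of neighbours in the order of the 4 groups overlapped.

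Gpc3 (chromosome X, 52272426 to 52613950, minus strand) encodes glypican-3, a heparan sulfate proteoglycan of the cell surface that is used as a marker of liver cancer. Control livers had 83, 227 and 388 reads in mice 101, 102 and 103 (4.0, 12.8 and 15.5 CPM) and No-Trp livers had 155, 51 and 57 in mice 105, 107 and 108 (8.87, 3.14 and 4.43 CPM). Control xenografts had 148, 106 and 35 reads in mice 41, 43 and 40 (5.90, 6.46 and 1.72 CPM) and No-Trp xenografts had 330, 232 and 214 in mice 35, 36 and 37 (12, 7.74 and 9.08 CPM). The liver groups overlapped and the xenograft groups did not. The log2 fold changes were -0.96 in livers (SE 0.57, edgeR adjusted p = 0.244) and 1.02 in xenografts (SE 0.46, edgeR adjusted p = 0.314), and their difference was 2.00 (SE 0.81, edgeR adjusted p = 0.109).

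Epcam (chromosome 17, 87635979 to 87651129, plus strand) encodes an adhesion protein of epithelial and hepatic progenitor cells. It had 265, 67 and 228 reads in control livers 101, 102 and 103 and 151, 112 and 59 in No-Trp livers 105, 107 and 108. Control xenografts had 149, 126 and 405 reads in mice 41, 43 and 40, and No-Trp xenografts 542, 346 and 396 in mice 35, 36 and 37. Mouse 40 alone, at 19.9 CPM, was above each No-Trp xenograft, and the groups overlapped within both models.

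Between the diets in the livers, 0 of the 9 genes were called higher and 1, L1td1, was called lower, where 9.28% and 7.27% of 14122 tested genes were (a call needs both an adjusted p no higher than 0.05 and a fold of 1 or more on the log2 scale). With library totals in place of TMM the median of all genes moved to -0.30 and the calls from 1311 higher and 1026 lower to 732 and 1532. All 3 No-Trp livers were above all 3 control livers for 1 member (Igf2bp2) and below them for 3 (Afp, Igf2bp3 and L1td1), against 23.6% and 25% of tested genes. The median log2 fold change of the 9 was -0.96, and that of all tested genes was -0.00. In the xenografts 8 of the 9 genes were tested and 0 were called in either direction, against 0.245% of 14704 genes called higher and 0.116% lower. All 3 No-Trp tumors were above the controls for Gpc3 and below them for Igf2bp1, 1 member each way, against 10.8% and 11.8% of tested genes. Library totals turned 36 higher and 17 lower calls into 60 and 11. At an unadjusted p under 0.05, edgeR had 16.9% of all tested genes in the xenografts. DESeq2 called 0 of the 8 there too.

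**Figure D3:**
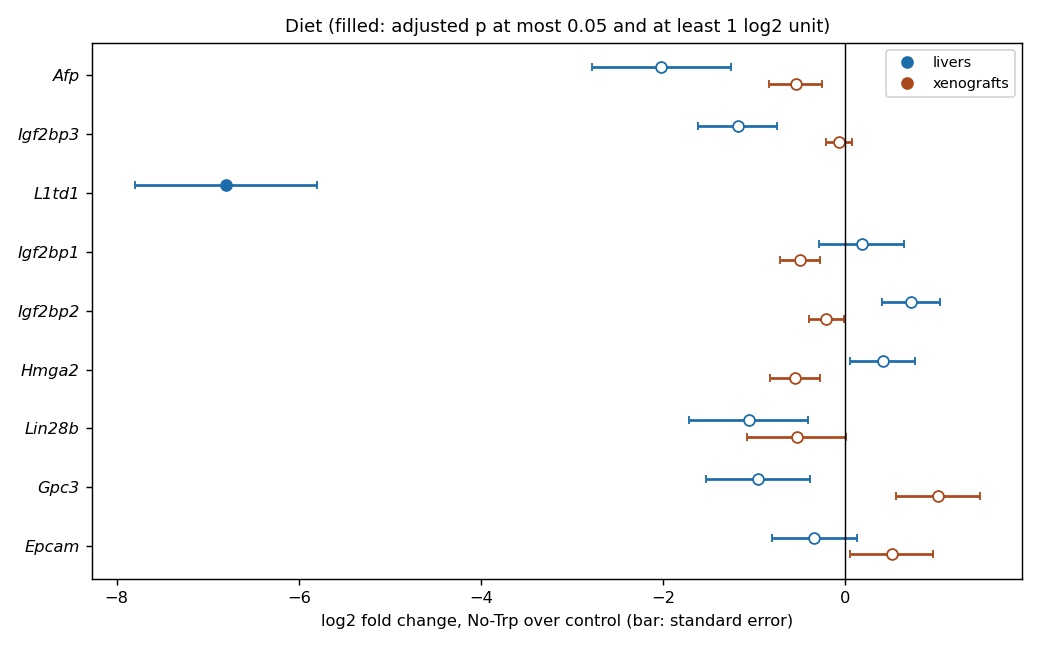
Log2 fold change of No-Trp over control (horizontal, with SE as bars) for each of the 9 genes (vertical) in livers and in xenografts, filled where called. Only L1td1 in livers, at -6.80, is filled, and L1td1 has no xenograft value because it was not tested there.

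Beside the lower values of Afp, Igf2bp3 and L1td1 in No-Trp livers, markers of other cells and states moved too. The 6 genes of dividing cells summed to 1019 to 1185 CPM in the control livers and to 71.3 to 320 CPM without Trp, lowest in mouse 107. Of the 6, 5 were called lower, beside 7.27% of all genes tested in livers. The 8 erythroid genes summed to 369 to 843 CPM and to 122 to 135 CPM. Of these, 5 of 8 were called lower, beside the same 7.27%, and none was at 0 in all 3 mice of a group. The 8 hepatocyte genes summed to 11686 to 43223 CPM in the control livers, highest in mouse 102 where Afp and L1td1 were lowest of the 3, and to 59022 to 145286 CPM in the No-Trp livers, highest in mouse 107 where Afp and Igf2bp3 were lowest. Of the hepatocyte genes 4 of 8 were called higher, beside 9.28% of all genes tested in livers. So were 2 of 8 stellate cell and fibroblast genes and 1 of 6 endothelial genes. Of 2 adipocyte genes tested, 1 was called lower, and no gene of the remaining marker lists was called. The part of these markers in the levels of the 9 genes was not tested, and in whole tissue fewer cells of a type and less RNA per cell cannot be told apart. In the xenografts the 4 adipocyte genes summed to 11.4 to 66.6 CPM on the control diet and to 351 to 736 CPM without Trp, and the 4 muscle genes to 0.932 to 13.7 and 22.4 to 43.4 CPM. The 6 endothelial genes summed to 48.8 to 121 and 132 to 211 CPM, and the 6 genes of dividing cells to 417 to 470 and 525 to 684 CPM, again without overlap. Of these lists, 2 of 4 adipocyte genes were called higher and no gene of the other lists was, beside 0.245% of all genes tested in xenografts. Their part in the Gpc3 and Igf2bp1 values was not tested.

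Single mice decided some calls. The L1td1 call was lost without control mouse 103 (log2 fold change -6.83, edgeR adjusted p = 0.0833) and without No-Trp mouse 105 (-6.20, edgeR adjusted p = 0.0508), and its adjusted p over all alternatives ran from 5.26e-07 to 0.0833. Afp passed both thresholds without control mouse 102 (-2.36, edgeR adjusted p = 0.0496), with DESeq2 (-2.03, adjusted p = 0.00963) and in a fit over all 12 libraries (-2.03, edgeR adjusted p = 0.0317), and its adjusted p over all alternatives ran from 0.00963 to 0.218. Igf2bp3 passed them with DESeq2 (-1.19, adjusted p = 0.0274) and in the fit over all 12 libraries (-1.19, edgeR adjusted p = 0.0205), and its adjusted p over all alternatives ran from 0.0205 to 0.184.

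**Figure D4:**
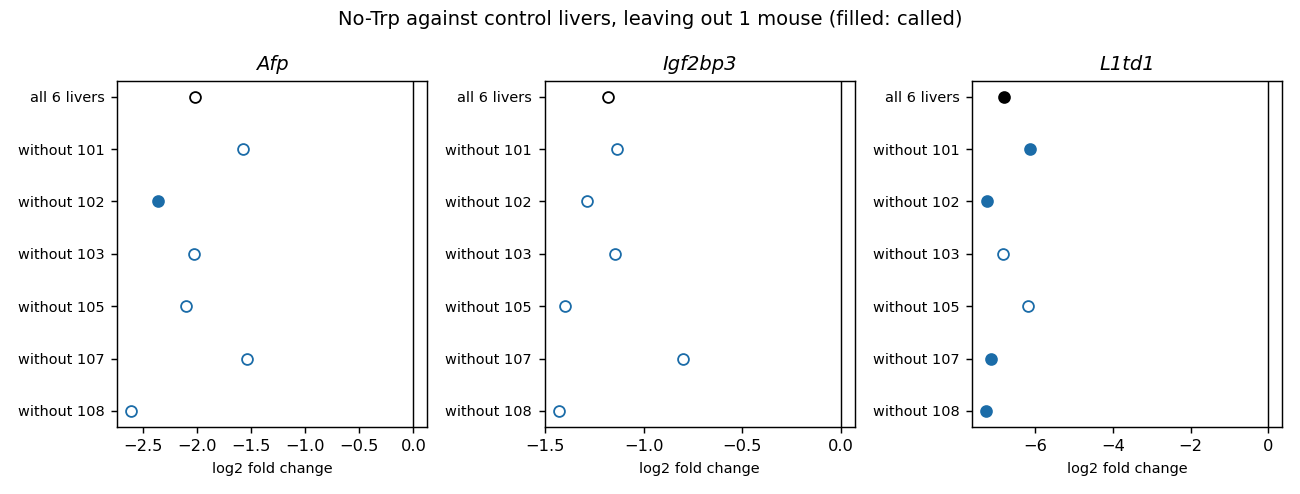
Log2 fold change of No-Trp over control livers (horizontal) for Afp, Igf2bp3 and L1td1 with all 6 livers and without each mouse in turn (vertical), filled where called. Each value stays below 0, from -2.61 to -1.54 for Afp, from -1.43 to -0.80 for Igf2bp3 and from -7.27 to -6.14 for L1td1.

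More of the 9 genes were called between the models than between the diets, and the same held for all genes. Of all genes, 6724 of 15472 were called between the models on the control diet and 2337 of 14122 between the diets in livers. On the control diet 3 of the 9 genes were called higher and 3 lower in xenografts than in livers, where 23.3% and 20.2% of 15472 tested genes were. The 3 higher were Hmga2, 83.7-fold (log2 fold change 6.39, SE 0.42), Igf2bp1, 67.2-fold (6.07, SE 0.36), and Igf2bp2, 39.6-fold (5.31, SE 0.27). The 3 lower were Afp, 30.8-fold (-4.94, SE 0.72), Igf2bp3, 2.91-fold (-1.54, SE 0.34), and L1td1. For L1td1 the 368 reads of the control livers stood against 2 in all 6 xenografts, a CPM ratio of 414 (95% exact interval 114 to 3433, counting error only). On the No-Trp diet 4 members were higher and 1 lower, where 24.5% and 19.1% of genes were. Hmga2, Igf2bp1 and Igf2bp2 were 43.8-, 43.1- and 21.2-fold higher, Epcam was 2.38-fold higher (edgeR adjusted p = 0.0493), and Afp was 10.9-fold lower. The Epcam call was lost in 11 of 20 alternatives, and the other 4 kept theirs in all 20. All 6 xenografts were above all 6 livers for Hmga2, Igf2bp1 and Igf2bp2, and below them for Afp, which is 3 and 1 of 9 against 22.7% and 16.9% of genes tested. Scaling by library totals moved the median of all genes from 0.15 to 0.68 (log2) on the No-Trp diet, where Igf2bp3 turned from -0.40 to 0.07 and the higher share of calls went from 56.2% to 74.1%.

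**Figure D5:**
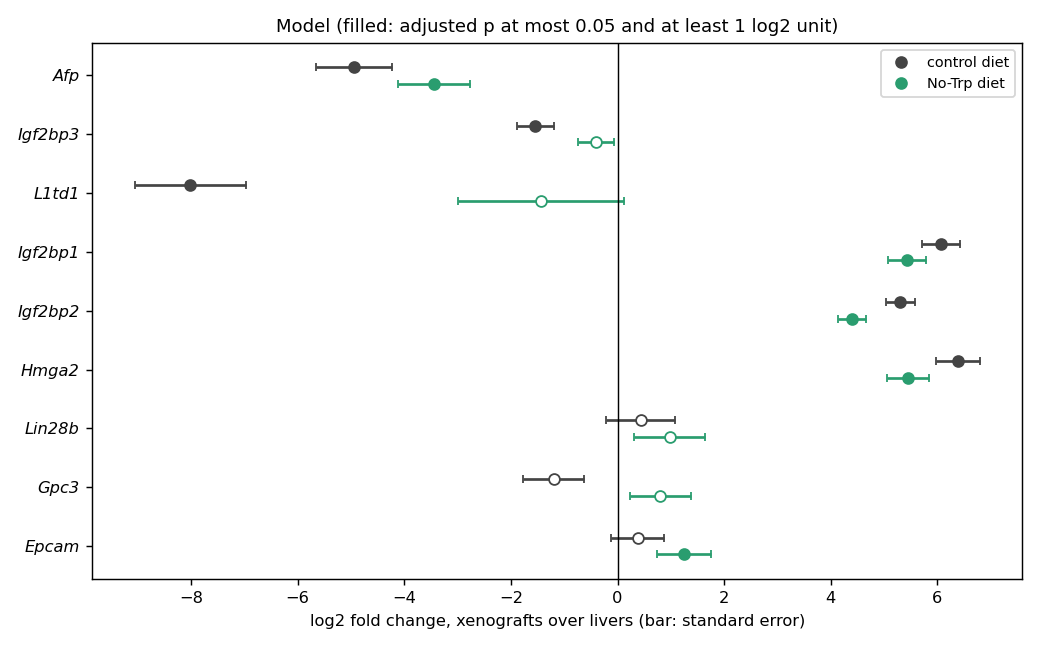
Log2 fold change of xenografts over livers (horizontal, with SE as bars) for each gene (vertical) on each diet, filled where called. Hmga2, Igf2bp1 and Igf2bp2 lie between 4.41 and 6.39 on both diets, Afp at -4.94 and -3.45, and Lin28b and Gpc3 are called on neither diet.

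The difference between the diet effects of the models was called for 0 of the 9 genes, where 6.7% of 15472 genes were called higher and 6.01% lower. By size of p, the closest were Igf2bp2 (-0.90, SE 0.33, edgeR adjusted p = 0.0835), Gpc3 (given above) and Igf2bp3 (1.14, SE 0.48, edgeR adjusted p = 0.120). DESeq2 called 1 of the 9, L1td1. With library totals the higher share of all calls went from 52.7% to 80.7%.

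Per kb of exon, Afp was the highest of the 9 in the livers on both diets, at 514 ± 273 and 126 ± 93.4 CPM per kb, and Igf2bp3 the second, at 12.9 ± 1.49 and 5.63 ± 2.99 (SD, n = 3 each). In the xenografts the order was Hmga2, Igf2bp2 and Afp, at 132 ± 51.3, 20.5 ± 3.03 and 16.7 ± 6.11 CPM per kb on the control diet. In the control xenografts Igf2bp2 and Afp lie within their spread of each other. Igf2bp1 was the lowest member in the control livers, at 0.110 ± 0.0389, and L1td1 in the other 3 groups. These first and second places in the livers, and the first 3 in the xenografts, were the same with the longest transcript as the length.

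Some genes followed the members closely over the 12 libraries. By Pearson's r of log2 CPM among genes with a mean of at least 100 reads, the nearest was Rbck1 for Afp (r = 0.989), Dhx9 for Gpc3 (0.938), Mgp for Epcam (0.928), Tmem237 for Lin28b (0.902), Cacnb3 for Igf2bp1 (0.996), Spry2 for Igf2bp2 (0.998), Dusp9 for Igf2bp3 (0.985), Eif5b for L1td1 (0.978) and Dzip1l for Hmga2 (0.998). The 12 points fall into the liver and xenograft sets, which by themselves give a high r to any gene that separates them. Each value is also the highest of at least 11668 genes compared, so part of its height comes from that choice. For L1td1 it rests on the 3 control livers, because the other libraries had 0 or 1 read.

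Around the members, 8 lists of 114 related genes were followed. In the livers 18 of the 108 tested were called, 9 higher and 9 lower, a share of 16.7% that is near the 16.5% of all genes tested. In the xenografts 2 of 109 were, or 1.83%, against 0.360% of all genes. The list counts that follow are to be read against 9.28% of all genes called higher and 7.27% lower in the livers, and 0.245% and 0.116% in the xenografts. In the list of let-7 processing 12 genes were tested in the livers, 0 rose and 2 fell, beside 9.28% and 7.27% of all genes, and the median log2 fold change was -0.48 with 3 values above 0 and 9 below. Trim71, an RNA-binding ubiquitin ligase of early embryos and itself a let-7 target, went from 9.98 ± 2.26 to 2.97 ± 1.89 CPM (SD, n = 3 each; log2 fold change -1.73, SE 0.53, edgeR adjusted p = 0.0494). Drosha, which cuts primary microRNA transcripts in the nucleus, went from 81.8 ± 11.3 to 40.1 ± 13.7 CPM (-1.02, SE 0.27, edgeR adjusted p = 0.0351). In the xenografts 0 of these 12 were called, with a median of 0.09.

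Of other let-7 targets, 18 were tested in the livers, 0 rose and 3 fell, beside 9.28% and 7.27% of all genes, and the median was -0.08 with 9 values on each side of 0. Cdc25a, a phosphatase that drives entry into S phase, went from 88.9 ± 10 to 30.1 ± 12.9 CPM (-1.55, SE 0.34, edgeR adjusted p = 0.0249), and Plagl2, a zinc finger factor, from 50.4 ± 6.90 to 19.6 ± 7.19 CPM (-1.34, SE 0.27, edgeR adjusted p = 0.0221). In the xenografts 20 were tested, 1 rose and 0 fell. The one that rose was Acvr1c, the receptor ALK7, from 0.0959 ± 0.0453 to 1.83 ± 0.439 CPM (4.16, SE 0.58, edgeR adjusted p = 0.0352). Its control tumors were near the floor, at 0.0609 to 0.147 CPM. It passed the low-count filter only through the No-Trp tumors, which largely set the direction. The list had 0 calls with at least 10 counts in each library, with the resubmission covariate and in the fit over all 12 libraries. It also had 0 without mouse 35, 36, 37, 41 or 43. ALK7 is made in fat tissue, whose markers were also higher in these tumors, as given above, and their part was not tested.

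Among 13 regulators of Afp, 3 rose and 0 fell in the livers, beside 9.28% and 7.27% of all genes, and the median was 0.83 with 11 values above 0 and 2 below. Zbtb20, the repressor that silences Afp after birth, went from 3.13 ± 1.63 to 9.0 ± 2.74 CPM (1.55, SE 0.47, edgeR adjusted p = 0.0495), and Cebpb, a factor of the acute phase response, from 34.7 ± 4.93 to 128 ± 44.6 CPM (1.9, SE 0.27, edgeR adjusted p = 0.0142). Zhx2, the other postnatal repressor, had 0.92 (edgeR adjusted p = 0.0496), under the fold threshold. In the xenografts Cebpb went the other way, from 72.5 ± 3.58 to 30.8 ± 4.79 CPM (-1.25, SE 0.16, edgeR adjusted p = 0.0235), the 1 called gene of 13. Of the 3 neighbours of Afp in the albumin cluster, 2 rose in the livers, Afm from 96.7 ± 47.9 to 305 ± 149 CPM (1.68, SE 0.45, edgeR adjusted p = 0.0373) and Gc, the vitamin D binding protein, from 2573 ± 913 to 7477 ± 1989 CPM (1.56, SE 0.39, edgeR adjusted p = 0.0314). Alb had a log2 fold change of 2.14 (SE 0.83, edgeR adjusted p = 0.0942). Afp, in the same cluster, had -2.02.

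Of 21 other fetal liver and progenitor genes tested in the livers, 0 rose and 4 fell, beside 9.28% and 7.27% of all genes, and the median was -1.31 with 4 values above 0 and 17 below. They include Cd24a, a surface protein of progenitor cells, from 108 ± 71.0 to 18.7 ± 6.58 CPM (-2.51, SE 0.56, edgeR adjusted p = 0.0268), and Scd2, the fatty acid desaturase of the fetal liver, from 683 ± 297 to 139 ± 78.8 CPM (-2.29, SE 0.56, edgeR adjusted p = 0.0306). Of 19 tested in the xenografts 0 were called. Of 14 genes of glypicans and heparan sulfate, 4 rose and 0 fell in the livers, beside 9.28% and 7.27% of all genes, and the median was 0.76 with 11 values above 0 and 3 below. Notum, which cuts glypicans off the membrane, went from 4.48 ± 4.61 to 29.3 ± 15.8 CPM (2.75, SE 0.80, edgeR adjusted p = 0.0464), and Sdc2, a syndecan, from 67.4 ± 38.8 to 264 ± 99.6 CPM (1.99, SE 0.45, edgeR adjusted p = 0.0264). In the xenografts 0 of 14 were called. The lists of Epcam partners (15 tested in livers, 16 in xenografts) and of IGF2BP partners and target RNAs (12 in each) had 0 calls in either model. In the livers the median of the IGF2BP list was -0.50, with 2 values above 0 and 10 below. There 4 of its 12 genes had an edgeR adjusted p no higher than 0.05, under the fold threshold, beside 3570 of all 14122 tested genes at any fold. The median of the Epcam list was -0.07, with 7 values above 0 and 8 below.

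These list counts depend on single mice as the others do. Summed over the 8 lists, the liver calls numbered 0 when control 103 was left out, 1 for control 101, 4 for No-Trp 105, 10 for No-Trp 107 and 29 for control 102. With library totals they were 5 higher and 16 lower. In the xenografts 0 were called with resubmission as a covariate, in the fit over all 12 libraries, and without mouse 35, 37, 41 or 43, 1 without mouse 36 and 3 without mouse 40.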

How the data were processed

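The deposited values are whole read counts per gene symbol for 12 libraries, which the authors made by trimming with Trim Galore, aligning to mm10 with STAR 2.7.2b and counting with HTSeq. The counts carry no normalization by the authors, and the strand setting and the rule for overlapping genes are not given in the sources used here, so reads of genes that overlap a member (antisense genes of Afp, Gpc3, Igf2bp1 and Hmga2, and Malsu1 at Igf2bp3) may be counted with it. Reads left off genes by the counting (24.7% to 39.4% of a library) stayed out. Depth was 14660963 to 26085349 reads per library.

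Each model's diets were tested on its own 6 libraries in R 4.3.3 by edgeR 4.0.16 (TMM, filterByExpr, robust quasi-likelihood F-test, two-sided). Models and the interaction used 1 fit of the 12 libraries. Benjamini-Hochberg adjustment ran over every gene tested. A call needs an adjusted p no higher than 0.05 and a fold of 1 or more on the log2 scale. A standard error is the log2 fold change over the square root of F. The labels number mice within a group, and the p-values measure the spread between these mice. Replicate pairs differed by a chi-square of at least 36.8 per degree of freedom and were kept as separate samples. Levels per kb use merged exons of GENCODE M21 on GRCm38, which matched 98.4% of symbols. The 95% intervals are exact (binomial, Clopper-Pearson) and cover counting error only.

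The members and lists were chosen with earlier results of these data known. Named genes are the members, at most 2 rises and 2 falls among called genes of each list and comparison, the nearest gene to each member, the first 2 genes of each marker list and Rn45s. Of the marker genes only Alb and Krt19 are reported here. Alb among the cluster genes, Zhx2, Trp53 and the genes used as overlaps were named after their values were seen. Alternatives were RLE factors, library totals, DESeq2 1.42.0, leaving low counts in, a minimum of 10 counts per library, a covariate for resubmission, other libraries in the fit, no threshold on the fold change, Rn45s left out, the longest transcript as length and each library left out. Applying them to the lists was chosen after seeing the data. The edgeR tests were tested on simulated data with known differences of 2 and 3 log2 units. At 2 the interaction test missed the recovery mark set first, so interactions of about 2 log2 units can go uncalled. After that miss a different mark was set, at 3 log2 units only, and each of the 4 comparisons tried met it.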

Additional observations from a re-analysis of the deposited data

Results flagged for a closer look

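For 8 of the 13 named list genes the diet effect differed between the models by the interaction term of the edgeR fit over all 12 libraries, with an adjusted p no higher than 0.05 and a size of 1 or more. These 13 were named because they were called between diets, nearly all in livers, and the interaction holds that same liver effect, so its sign was largely set by the choice and supports nothing. Over the 8 lists 19 of 111 tested genes were called (9 higher, 10 lower), or 17.1%, against 12.7% of all 15472 genes. Values are xenograft effect minus liver effect on the log2 scale. Of these, 5 genes that fell in the livers had a positive difference: Trim71 at 2.15 (standard error 0.64, edgeR adjusted p = 0.0413), Cdc25a at 1.46 (0.38, 0.0272), Plagl2 at 1.64 (0.35, 0.0130), Cd24a at 2.21 (0.60, 0.0320) and Scd2 at 2.32 (0.65, 0.0351). The other 3 rose in the livers and had a negative difference: Cebpb at -3.12 (standard error 0.32, edgeR adjusted p = 0.00165), Zbtb20 at -2.26 (0.62, 0.0323) and Sdc2 at -2.61 (0.61, 0.0189). Cebpb was called in opposite directions in the models. Of the 9 oncofetal genes, 0 met this rule.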

How the results depend on the processing

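No paired analysis was possible because the groups share no animal numbers. Of the members called in livers (1 as reported), there were 0 with at least 10 counts required in each library, where L1td1 was filtered out, 3 with DESeq2, 3 with the other libraries in the fit and 0 to 2 with a mouse left out (0 without 103 or 105, 2 without 102). All genes called in livers numbered 2337, 3570 with no fold threshold and 8 (without 103) to 3207 (without 102) with a mouse left out, with 294 without 101, 368 without 105 and 1269 without 107. In xenografts 53 genes were called, against 82 with RLE factors, 118 without the low-count filter, 15 with the stricter filter, 4 with the resubmission covariate, 85 with Rn45s left out, 380 with DESeq2, 23 with the other libraries in the fit and 9 (without 43) to 78 (without 40) with a mouse left out. Members called there were 0 throughout these alternatives. The interaction had 1966 genes, 916 (without 103) to 2571 with a mouse left out, and 0 members, 1 with DESeq2. The cause of these shifts was not tested. Signs turned only for values that were not called. With library totals these were Igf2bp1 in livers (-0.11), Igf2bp3 in xenografts (0.044) and Igf2bp3 between models on the No-Trp diet (0.070). With the covariate these were Epcam (-0.32), Hmga2 (0.094) and Lin28b (0.25) in xenografts and Lin28b between models on the control diet (-0.018). With a mouse left out, Epcam ran from -0.70 to 0.064 and Igf2bp1 from -0.086 to 0.50 in livers, Lin28b from -0.82 to 0.12 in xenografts, and between models on the control diet Epcam from -0.33 to 0.78 and Lin28b from -0.21 to 0.72. Depth limits L1td1, with 2 reads in the 3 No-Trp livers.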
